A study of Rattus norvegicus with 6 samples.

Results

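Extracellular matrix genes and genes associated with pancreatic stellate cells were examined in the pancreas of rats on an ethanol diet, a set of 45 genes chosen by name. A gene was read on the probe set (the array's group of short probes for a transcript) that is annotated to that gene alone and has the highest mean log2 value over the 6 arrays. Of the 45 genes, 43 had such a probe set, out of 10411 genes that did, and the thrombospondins Thbs1 and Thbs2 had none. The study asked how chronic ethanol consumption affects this organ. Pancreas from 3 rats on a control diet and 3 rats on an ethanol diet was hybridised, 1 array per rat. The sources used here do not give strain, age, diet composition or length of feeding. Values are deposited intensities in arbitrary units, and tests used log2(value + 50) after values below 0 were set to 0, a scale that understates the change of dim genes. Genes whose mean log2 value lay under the 40th percentile of all probe sets, equal to an intensity of 392, were not tested. This left 34 tested genes and set 9 dim ones aside.

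The matrix of the pancreas holds fibrillar collagens between the lobules, a basement membrane around acini, ducts and vessels, and the glycoproteins, proteoglycans, proteases and inhibitors that assemble it and turn it over. Stellate cells lie beside the acini and store vitamin A at rest. When activated they take on a fibroblast-like form and make most of the collagen of pancreatic fibrosis, with transforming growth factor beta (TGF-beta) and platelet-derived growth factor (PDGF) as main signals.

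None of the 34 tested genes changed with the ethanol diet at a limma adjusted p under 0.05, a call made for 0.410% of the 9520 probe sets tested. At an unadjusted p under 0.05, 2 of the 34 differed (Col5a1 and Col18a1, both higher in ethanol), or 5.88%, beside 18.4% of all tested probe sets (8.08% higher and 10.3% lower). The arrays of the 2 diets did not overlap for 6 genes that lay higher in ethanol (Col5a1, Col6a1, Col12a1, Col18a1, Bgn and Loxl1) and for 1 that lay lower (Col4a1). Together these were 20.6% of the 34, beside 25.4% of all tested probe sets (11.1% higher and 14.3% lower). Log2 changes, given throughout as ethanol minus control, ran from -0.48 to 0.67 with a median of 0.068, 19 above 0 and 15 below. The median over all tested probe sets was 0.00020, with 4762 above 0 and 4758 below. For 29 of the 34 genes the 95% interval lay within a 2-fold change in either direction, and for Col5a1, Fbn1, Mmp9, Timp3 and Igfbp3 it reached beyond. In tissue of mixed cells, fewer cells of a type and less RNA per cell cannot be told apart.

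**Figure D1:**
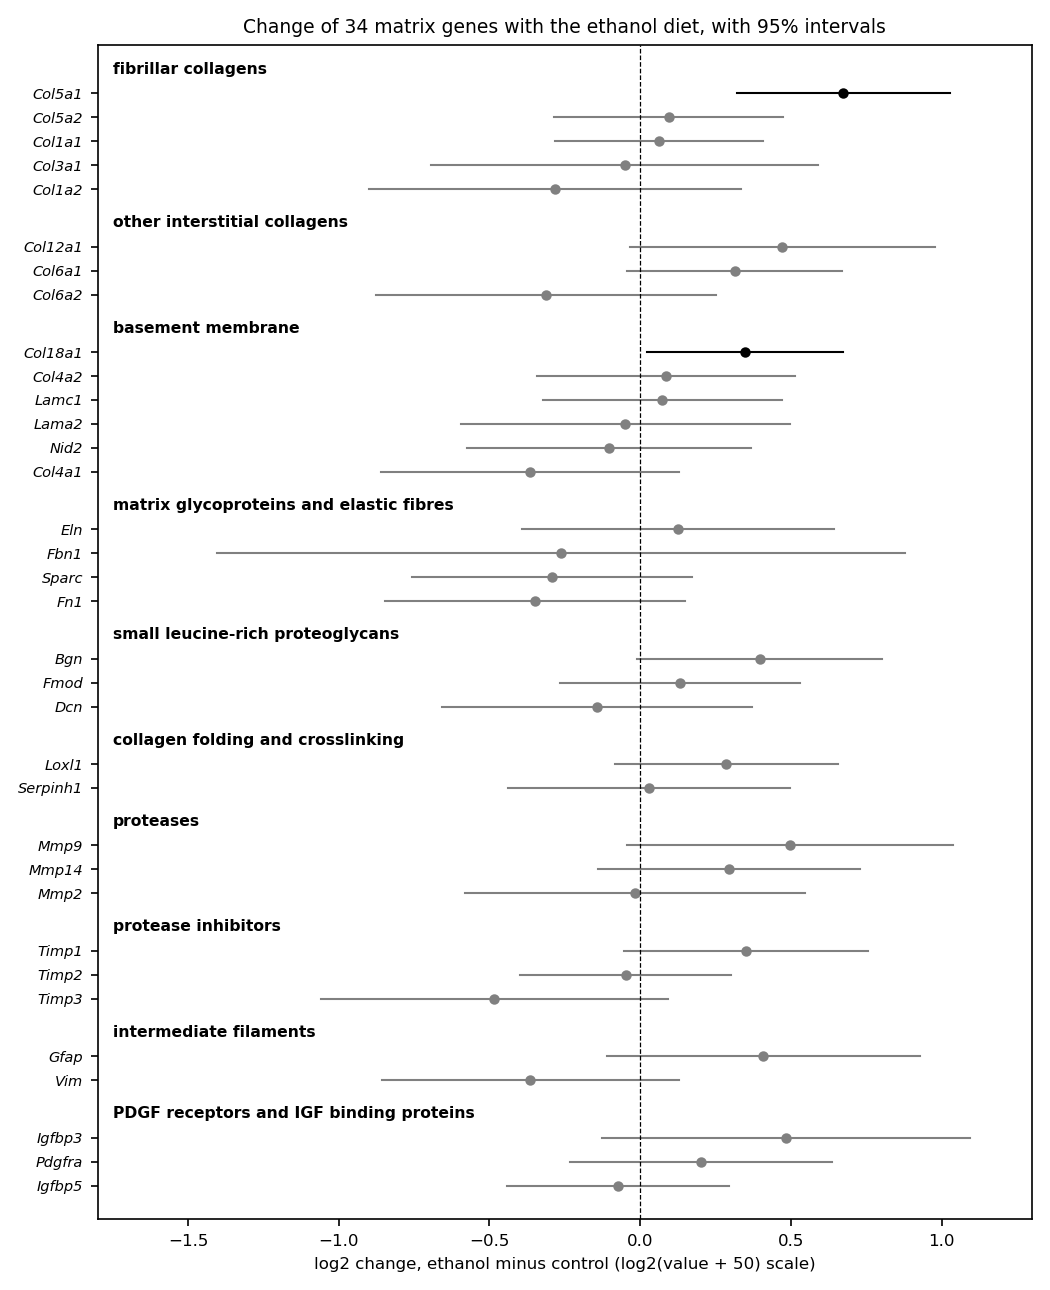
Log2 change (ethanol minus control, x axis) of the 34 tested matrix genes in their 10 role groups. Points are limma estimates and lines 95% intervals, black where the unadjusted p was under 0.05. The intervals of Col5a1 and Col18a1 lie above 0 and the other 32 cross it.

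The tissue read as exocrine pancreas. The acinar enzymes Cpa1, a carboxypeptidase, and Pnlip, the pancreatic lipase, were at 163511 ± 2891 and 155292 ± 1639 in control rats (SD, n = 3), and array maxima ran from 163449 to 171742. Some stellate cell markers were weak, while others passed the filter. Des, which encodes the filament protein desmin, ran from 160 to 326, and Pdgfrb, a PDGF receptor, from -45 to 263, both under the filter. Acta2, the smooth muscle actin of activated stellate cells, was at 305, 401 and 330 in control rats and at 178, 134 and 267 in ethanol rats, also under the filter. Its ethanol arrays all lay below the controls, by 38 between the nearest, with no test. Arrays lay lower in ethanol without overlap for 14.3% of all tested probe sets. Other contractile genes under the filter whose arrays did not overlap went both ways. Cnn1 lay above the controls by 86 between the nearest arrays, and Tpm2 below them by 25. In the related list of stellate cell genes, Cygb ran from 799 to 1337 and Nes from 378 to 923. Both passed the filter, with overlapping groups. Within the set the stellate name rests on Gfap, Vim and Pdgfra, which other cells express too, and the set is called matrix genes in what follows.

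Fibrillar collagens build the tensile fibres of connective tissue, and 5 of the 6 listed were tested. The genes of collagens I and III did not separate the diets, whereas Col5a1 was higher on all 3 ethanol arrays. Intensities are listed here and below for replicates 1, 2 and 3 of each diet in turn. Col3a1, the chain of collagen III, was at 6006, 4343 and 8430 in control rats and at 4207, 7095 and 6619 in ethanol rats. The groups overlapped, with both the highest array and the second lowest from control rats (log2 change -0.05, SE 0.28, 95% interval -0.69 to 0.59). Col1a1 and Col1a2, the chains of collagen I, had log2 changes of 0.06 (SE 0.15, 95% interval -0.28 to 0.41) and -0.28 (SE 0.27, 95% interval -0.90 to 0.34).

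Col5a1, a chain of collagen V, which is built into collagen I fibrils and limits their width, was at 1793, 1794 and 1416 in control rats. In ethanol rats it was at 2767, 2458 and 2813, so that every ethanol array lay above every control array. The log2 change was 0.67 (SE 0.15, 95% interval 0.32 to 1.03), the largest of the 34, with an unadjusted p of 0.00217 and a limma adjusted p of 0.0983. It stayed between 0.56 and 0.73 over the alternatives tried. The limma adjusted p ran from 0.0393, with a variance trend in the model, to 0.248, and Col5a1 was the only matrix gene called under any alternative. A dimmer probe set of Col5a1, under the filter, ran from 16 to 347. The partner chain gene Col5a2 was at 0.09 (SE 0.17, 95% interval -0.29 to 0.48), with overlapping groups, and Col5a3 was under the filter, from 108 to 565.

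The windows at the annotated starts of Col1a2 and Col5a1 are shown because these fibrillar collagen genes had the most different log2 changes of the group. Each window runs from 250 bases before the annotated start to 50 after it, 5′ to 3′ on the gene's strand, from RefSeq on build GRCr8, which held a window for 28 of the 45 genes. They lie at chr4:33518307-33518606, plus strand, and chr3:31606630-31606929, plus strand. Capitals mark every match, on either strand, to the CCAAT box, to the TATA box searched as TATAAA, and to the GC box searched as GGGCGG.
Col1a2: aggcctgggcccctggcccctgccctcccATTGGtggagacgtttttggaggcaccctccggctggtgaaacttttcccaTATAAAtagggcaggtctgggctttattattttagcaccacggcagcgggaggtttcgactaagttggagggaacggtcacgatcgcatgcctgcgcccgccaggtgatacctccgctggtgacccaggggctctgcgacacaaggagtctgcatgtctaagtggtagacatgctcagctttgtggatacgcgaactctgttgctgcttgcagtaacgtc
Col5a1: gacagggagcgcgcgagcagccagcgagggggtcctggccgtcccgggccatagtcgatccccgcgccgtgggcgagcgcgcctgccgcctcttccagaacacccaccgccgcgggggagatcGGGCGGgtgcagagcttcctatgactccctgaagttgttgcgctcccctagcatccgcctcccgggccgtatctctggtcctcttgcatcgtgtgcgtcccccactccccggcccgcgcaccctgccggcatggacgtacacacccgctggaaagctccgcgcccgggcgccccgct
The Col1a2 window held a CCAAT box on the opposite strand, with its first letter 221 bases before the start, and a TATA box 170 bases before it. The Col5a1 window held neither of these, and had a GC box 127 bases before the start. The matches in these windows do not overlap each other. Of all 33469 windows of this length, 37.5% held the CCAAT letters, 14.2% those of the TATA box and 33.1% those of the GC box; of the 28 windows of matrix genes, 11, 3 and 16 did. These are matches of letters, not known binding sites. In both printed windows an ATG opens at or just after the annotated start, and no stop codon follows in its frame. The annotated starts may therefore be those of the coding sequence, so the distances are not from a known start of transcription. Part of each window may be transcribed, and a missing match does not describe a promoter further upstream.

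The other 3 interstitial collagens were all tested, and the diets' arrays separated for 2 of them without passing the test, as they did for 25.4% of all tested probe sets (11.1% with ethanol higher). Col6a1, a chain of the beaded filaments of collagen VI, was at 2522, 2119 and 2585 in control rats and at 3067, 3312 and 2644 in ethanol rats. Every ethanol value lay above every control value, by as little as 59 between the nearest arrays (log2 change 0.31, SE 0.16, limma adjusted p = 0.324). Col6a2, whose protein joins that of Col6a1 in the same trimer, had the opposite sign, with a log2 change of -0.31 (SE 0.25) and overlapping groups. Col12a1, a collagen that coats fibrils, was at 530, 577 and 652 in control rats and at 1191, 673 and 709 in ethanol rats. Ethanol replicate 1 stood far above the other 5 arrays; the log2 change was 0.47 (SE 0.22, limma adjusted p = 0.303) and 0.22 without that array.

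**Figure D2:**
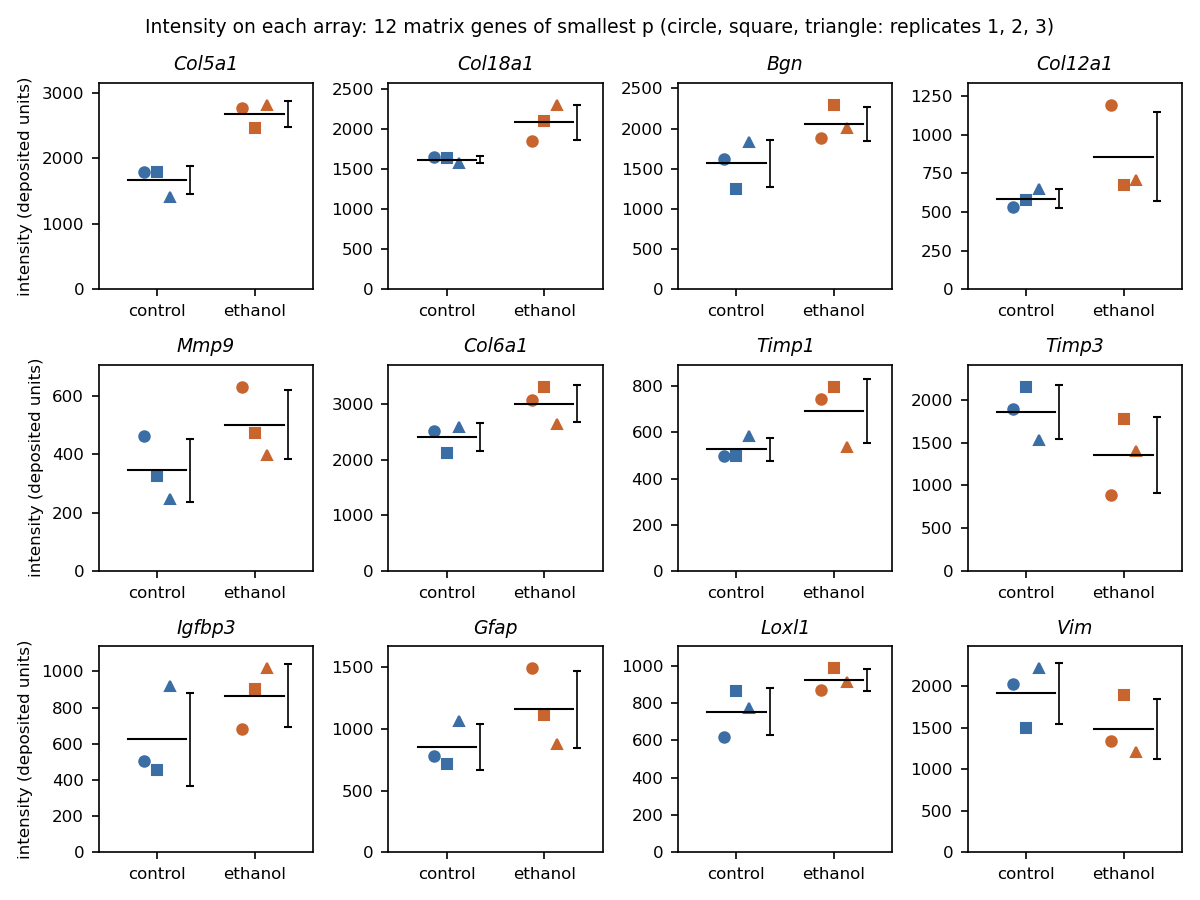
Deposited intensity (y axis, from 0) on each array for the 12 matrix genes of smallest unadjusted p, control in blue and ethanol in orange. Marker shapes are replicates, horizontal lines group means and bars 1 SD either side (n = 3). Every ethanol point lies above every control point for Col5a1, Col18a1, Bgn, Col12a1, Col6a1 and Loxl1.

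Basement membrane genes gave 1 gene higher and 1 lower in ethanol among 6 tested with non-overlapping groups, or 33.3%, beside 25.4% of all tested probe sets (11.1% higher and 14.3% lower). Col18a1, the collagen whose end fragment is endostatin, was at 1645, 1634 and 1571 in control rats and at 1850, 2093 and 2294 in ethanol rats. The control arrays were close together and all below the ethanol arrays (log2 change 0.35, SE 0.14, unadjusted p = 0.0387, limma adjusted p = 0.242). Its other probe set gave 578, 796 and 493 in control rats and 456, 424 and 534 in ethanol rats, a log2 change of the opposite sign (-0.35, SE 0.19). With the log2 values of both averaged the change was 0.00036, and over all alternatives its unadjusted limma p ran from 0.0202 to 0.998.

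Col4a1 and Col4a2 encode the chains of the main network collagen of basement membranes. They are known to be transcribed in opposite directions from a shared promoter. The RefSeq windows on GRCr8, at chr16:84885347-84885646, plus strand, and chr16:84885471-84885770, minus strand, overlap by 176 bases, and the annotated starts lie 77 bases apart. Each is shown on its own gene's strand, with the overlap in capitals, since the pair can be compared as products of the same stretch of DNA.
Col4a1: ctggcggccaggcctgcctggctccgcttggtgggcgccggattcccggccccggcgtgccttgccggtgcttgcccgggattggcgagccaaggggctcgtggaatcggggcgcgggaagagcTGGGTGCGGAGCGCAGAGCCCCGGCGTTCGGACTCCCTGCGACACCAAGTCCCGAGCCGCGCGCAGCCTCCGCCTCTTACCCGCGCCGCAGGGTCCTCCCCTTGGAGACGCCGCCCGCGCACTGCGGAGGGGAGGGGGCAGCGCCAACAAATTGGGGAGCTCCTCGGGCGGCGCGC
Col4a2: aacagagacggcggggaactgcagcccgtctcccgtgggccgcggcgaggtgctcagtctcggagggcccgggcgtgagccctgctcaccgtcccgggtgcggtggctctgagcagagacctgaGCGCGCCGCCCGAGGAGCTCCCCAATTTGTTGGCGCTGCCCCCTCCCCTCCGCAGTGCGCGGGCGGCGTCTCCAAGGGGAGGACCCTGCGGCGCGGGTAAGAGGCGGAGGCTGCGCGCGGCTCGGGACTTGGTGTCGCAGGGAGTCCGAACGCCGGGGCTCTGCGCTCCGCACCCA
The capitals of one are the reverse complement of those of the other. Col4a1 was at 1569, 1706 and 1654 in control rats and at 879, 1513 and 1512 in ethanol rats. All ethanol arrays lay below the control arrays, but replicates 2 and 3 by a small margin and replicate 1 by a wide one (log2 change -0.36, SE 0.22, limma adjusted p = 0.404). Without ethanol replicate 1 it was -0.12. A second Col4a1 probe set gave 1074, 1041 and 1845 in control rats and 742, 1496 and 1466 in ethanol rats, with overlapping groups (log2 change -0.11, SE 0.31). Col4a2 was at 1268, 1148 and 1528 in control rats and at 1118, 1651 and 1452 in ethanol rats, again with overlap (0.09, SE 0.19).

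Col4a2 was set against each Col4a1 probe set across the 6 rats. On the log2 scale Pearson's r with the second was 0.895 (two-sided exact permutation p = 0.0236) and Spearman's rho 0.943 (exact permutation p = 0.0167), and r was 0.948 without ethanol replicates 1 and 2. Within the control rats r was 0.955 and within the ethanol rats 0.954. With the brighter probe set r was 0.461 (exact permutation p = 0.443) and rho 0.143 (exact permutation p = 0.803); r was -0.43 without those 2 arrays, -0.198 within the control rats and 0.946 within the ethanol rats. The ethanol rats thus gave a like r with both probe sets, each over 3 arrays. These 2 relations were chosen after the values were seen. Adjusted over their 4 p-values, the first gave 0.0472 by either coefficient and the second 0.591 and 0.803 (exact permutation). The adjustment does not cover that choice. No other pairs of genes were compared, so how often a pair reaches such values is not given. Col3a1, which is not part of this pair, ordered the rats much as Col4a2 did, with ethanol replicate 1 lowest and control replicate 2 next. The relation is thus not shown to be particular to genes that share a promoter.

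**Figure D3:**
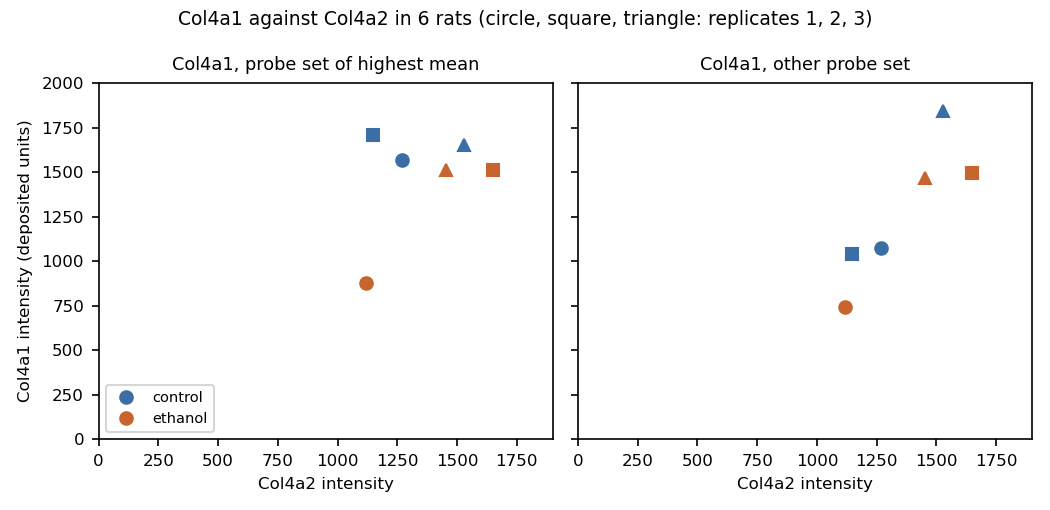
Intensity of Col4a1 (y axis) against Col4a2 (x axis) in the 6 rats, for the Col4a1 probe set of highest mean (left) and the other (right), control in blue and ethanol in orange. On the right the points line up (r = 0.895 on the log2 scale), while on the left 5 rats lie between 1512 and 1706 for Col4a1 and ethanol replicate 1 stands at 879.

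The other basement membrane genes showed no separation. Log2 changes were -0.10 (SE 0.20) for the linker nidogen-2 gene Nid2, and for the laminin chain genes -0.05 (SE 0.24) for Lama2 and 0.07 (SE 0.17) for Lamc1. Lamb2, a laminin beta chain, was under the filter, at 221, 302 and 281 in control rats and at 452, 358 and 448 in ethanol rats. These dim values did not overlap, and Lamb2 had an unadjusted p under 0.05 when the filter was dropped.

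Matrix glycoproteins and elastic fibre genes had log2 changes below 0 in 3 of the 4 tested, with overlapping groups in all 4. Sparc, which binds collagen and calcium, was at 2356, 1872 and 2888 in control rats and at 1563, 1970 and 2219 in ethanol rats (log2 change -0.29, SE 0.20). Its other tested probe set gave 0.11 (SE 0.21). Eln, the gene of elastin, was at 4223, 3636 and 4320 in control rats and at 5994, 3209 and 4488 in ethanol rats. The highest and the lowest Eln arrays were both from ethanol rats (log2 change 0.13, SE 0.23), and the sign turned without ethanol replicate 1 (-0.09). Fn1, which encodes fibronectin, was at -0.35 (SE 0.22). Fbn1, of the fibrillin microfibrils, had the widest error of the set (-0.26, SE 0.50), with ethanol replicate 1 at 250 and the other 5 arrays from 652 to 1152. Postn, a matricellular protein of activated fibroblasts, was under the filter, from 92 to 415.

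Small leucine-rich proteoglycans bind collagen fibrils and growth factors. Dcn, the gene of decorin, was at 4783, 3517 and 5364 in control rats and at 3618, 5342 and 3446 in ethanol rats, with overlap (log2 change -0.14, SE 0.22). Bgn, of biglycan, was at 1628, 1245 and 1828 in control rats and at 1878, 2292 and 2011 in ethanol rats. The ethanol arrays all lay above the control arrays, the nearest pair 50 apart (log2 change 0.40, SE 0.18, limma adjusted p = 0.283). Fmod, of fibromodulin, was at 0.13 (SE 0.17), and Lum, of lumican, was under the filter, from 154 to 430.

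Genes of collagen folding and crosslinking were near 0 or slightly higher. Serpinh1, the collagen chaperone of the endoplasmic reticulum, was at 983, 1385 and 1420 in control rats and at 1093, 1601 and 1177 in ethanol rats (log2 change 0.03, SE 0.20). The groups overlapped, and by its name the probe set can read more than 1 transcript. Loxl1, a lysyl oxidase that crosslinks elastin, was at 620, 867 and 773 in control rats and at 868, 987 and 912 in ethanol rats. Control replicate 2 and ethanol replicate 1 differed by 1 unit, so the groups only just did not overlap (log2 change 0.29, SE 0.16, limma adjusted p = 0.382). Lox, another lysyl oxidase, lay under the filter, from 158 to 610.

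Matrix proteases gave overlapping groups in all 3 tested. Mmp2, a gelatinase made by stromal cells, was at 1487, 1249 and 1079 in control rats and at 1739, 873 and 1268 in ethanol rats (log2 change -0.02, SE 0.25). Its dimmer probe set gave 945, 770 and 902 in control rats and 1094, 1247 and 1124 in ethanol rats. There the ethanol arrays all lay above the controls (0.39, SE 0.15, unadjusted p = 0.0274, limma adjusted p = 0.212), unlike on the brighter probe set. Mmp9, a gelatinase made largely by leukocytes, was at 462, 324 and 248 in control rats and at 632, 474 and 399 in ethanol rats (log2 change 0.50, SE 0.24, limma adjusted p = 0.309). Its control mean of 345 lay under the filter's 392, so it passed the filter through its ethanol arrays. Mmp14, the membrane-bound activator of Mmp2, was at 634, 387 and 478 in control rats and at 684, 597 and 562 in ethanol rats. Control replicate 1 lay within the ethanol range (0.29, SE 0.19). Plat, the tissue plasminogen activator, ran from 225 to 505 and Mmp11 from -37 to 136, both under the filter.

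Among the inhibitors of these proteases, Timp1 and Timp3 had opposite signs. Timp1 was at 498, 498 and 583 in control rats and at 743, 798 and 537 in ethanol rats, where replicate 3 lay among the controls (log2 change 0.35, SE 0.18, limma adjusted p = 0.331). Timp2 was at 3027, 2447 and 2676 in control rats and at 2337, 2661 and 2877 in ethanol rats, with overlap throughout (-0.05, SE 0.15, 95% interval -0.40 to 0.30). Timp3, which stays bound to the matrix, was at 1894, 2157 and 1534 in control rats and at 889, 1774 and 1401 in ethanol rats. Ethanol replicate 2 lay within the control range (-0.48, SE 0.25, limma adjusted p = 0.344), the other tested Timp3 probe sets gave -0.04 and 0.12, and the change was -0.22 without ethanol replicate 1.

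The filament genes also had opposite signs. Vim, of vimentin, found in mesenchymal cells generally, was at 2020, 1500 and 2216 in control rats and at 1344, 1888 and 1210 in ethanol rats (log2 change -0.36, SE 0.21, limma adjusted p = 0.401). Gfap, expressed by glial and resting stellate cells, was at 784, 713 and 1068 in control rats and at 1494, 1113 and 877 in ethanol rats (0.41, SE 0.23, limma adjusted p = 0.376). The groups overlapped in both genes. Gfap is also a marker of Schwann cells, the glia of nerves. The other tested Schwann cell markers were S100b at 0.21 (SE 0.20), Mbp at 0.42 (SE 0.20) and Pmp22 at -0.18 (SE 0.21), all with overlapping groups. Mbp passed the filter through its ethanol arrays, with a control mean log2 value just under it. The part of Schwann cells in the Gfap value was not tested.

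Receptors and binding proteins of growth factors showed no separation of the diets. Pdgfra, the other PDGF receptor, was at 723, 889 and 1024 in control rats and at 866, 1243 and 951 in ethanol rats (log2 change 0.20, SE 0.19). Igfbp3, a carrier of insulin-like growth factors, was at 504, 453 and 921 in control rats and at 679, 903 and 1018 in ethanol rats. Control replicate 3 lay within the ethanol range (0.49, SE 0.27, limma adjusted p = 0.372), and the other tested Igfbp3 probe set gave -0.02. Igfbp5 was at 720, 633 and 902 in control rats and at 689, 727 and 699 in ethanol rats, the latter inside the control range (-0.07, SE 0.16). Its other probe sets, under the filter, ran from 135 to 424 and from -351 to 124. On the dimmest, the ethanol arrays lay below the controls as deposited. All its values but control replicate 1 were below 0, and the groups overlapped once these were set to 0.

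Where a matrix gene had several tested probe sets, they often disagreed. Of 13 such genes, 7 had changes of opposite sign, namely Col18a1, Timp3, Igfbp3, Sparc, Mmp2, Col5a2 and Col1a1. The gap was widest for Col18a1, at 0.70 on the log2 scale, and it was narrowest for Fbn1, at 0.019. Over all 48 tested probe sets of the 34 genes, 3 had an unadjusted p under 0.05, all higher in ethanol, and 0 passed the limma test. Those 3 were 6.25%, beside 18.4% of all tested probe sets (8.08% higher and 10.3% lower).

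**Figure D4:**
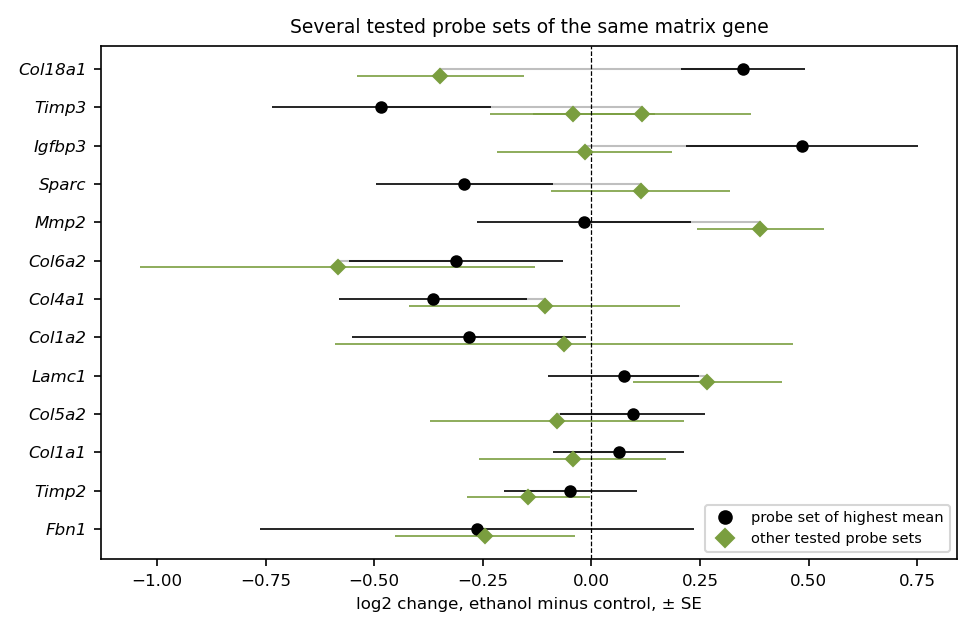
Log2 change (ethanol minus control, x axis, bars 1 SE) of every tested probe set of the 13 matrix genes with more than 1; black circles are the probe sets of highest mean and green diamonds the others. The probe sets of Col18a1 lie at 0.35 and -0.35, and 7 genes have points on both sides of 0.

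Rats of the same diet differed from each other across the set. Against each gene's mean over 6 arrays, the median log2 deviation of the 34 genes was -0.0050, -0.20 and 0.032 in the control rats and -0.084, 0.19 and 0.022 in the ethanol rats. Control replicate 2 was thus low and ethanol replicate 2 high, while over all tested probe sets these medians lay between -0.0057 and 0.016. Ethanol replicate 1 was the lowest array for 10 of the 34 genes, 4 of them basement membrane genes, yet the highest for 6. Ethanol replicate 2 was the highest for 10, and control replicate 3 for 9, of which 3 were fibrillar collagens. The set's median log2 change was 0.0066 without control replicate 2, -0.0033 without ethanol replicate 2 and 0.18 without ethanol replicate 1.

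**Figure D5:**
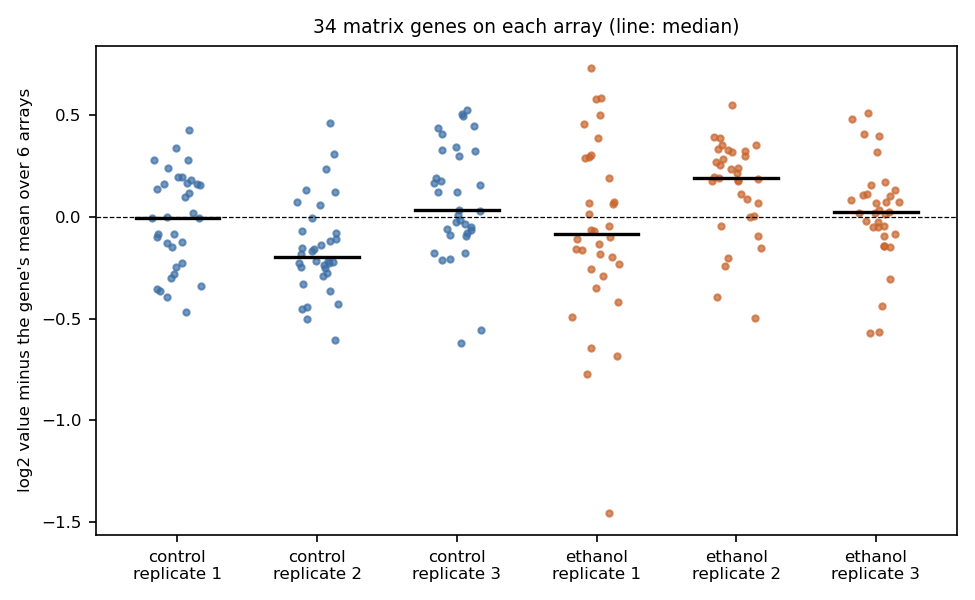
Log2 value minus the gene's mean over 6 arrays (y axis) for the 34 tested matrix genes on each array (x axis); lines are medians. The median lies at -0.20 for control replicate 2 and at 0.19 for ethanol replicate 2; the lowest point, on ethanol replicate 1, is Fbn1.

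Other genes of matrix signalling and assembly, from lists of related genes, gave 0 calls among 76 tested entries by limma, of which 10 lay higher in ethanol and 3 lower at the unadjusted level of 0.05. These were 17.1% of the entries, near the 18.4% of all tested probe sets (8.08% higher and 10.3% lower). In the TGF-beta and CCN list, 12 of 22 were tested, with 0 higher and 2 lower at that level. They were Tgfbr1, a TGF-beta receptor, and Smad3, which carries its signal to the nucleus. Tgfbr1 was at 770, 848 and 1106 in control rats and at 520, 574 and 510 in ethanol rats, with the ethanol arrays all below (log2 change -0.70, SE 0.17, limma adjusted p = 0.105). Smad3 was at -0.39 (SE 0.17, limma adjusted p = 0.272), and the activin chain gene Inhba, which passed the filter through its control arrays, at -0.53 (SE 0.24). The list's median was 0.13.

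Among 11 tested collagen processing genes, 3 (27.3%) had an unadjusted p under 0.05, all higher in ethanol, beside 18.4% of all tested probe sets (8.08% higher). P4ha1, a chain of the prolyl hydroxylase that stabilises the collagen helix, was at 1179, 1053 and 981 in control rats and at 1499, 1479 and 1464 in ethanol rats. Its ethanol arrays were closely grouped above the controls (log2 change 0.45, SE 0.14, limma adjusted p = 0.157). Pcolce, which helps to cut the procollagen end, was at 908, 783 and 689 in control rats and at 1180, 1053 and 1788 in ethanol rats (0.69, SE 0.21, limma adjusted p = 0.161). Plod2, a lysyl hydroxylase, was at 0.30 (SE 0.13, limma adjusted p = 0.263). The median of the 11 was 0.061.

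Of 23 other matrix proteins tested, 6 (26.1%) had an unadjusted p under 0.05, beside 18.4% of all tested probe sets, and the median log2 change was 0.036. Of the 6, 5 were higher in ethanol, but Prelp and Col8a1 among them had control means of 288 and 341, under the filter's 392, and so were tested only through their ethanol arrays. The smallest p in any of these lists belonged to Prelp, a leucine-rich proteoglycan of basement membranes and cartilage. It was at 366, 249 and 248 in control rats and at 871, 574 and 504 in ethanol rats, all above the controls (log2 change 1.03, SE 0.23, limma adjusted p = 0.0923). The proteoglycan gene Gpc3 (0.66, SE 0.16, limma adjusted p = 0.103) and the microfibril gene Mfap2 (0.57, SE 0.18, limma adjusted p = 0.161) followed.

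The 9 tested other proteases and inhibitors gave 0 at an unadjusted p under 0.05, with Mmp24 at -0.46, Mmp23 at 0.35 and Adam9, which passed the filter through its ethanol arrays, at 0.46. Of 10 integrins, collagen receptors and PDGF ligands, 1 was higher, the integrin chain gene Itga3 (0.47, SE 0.16, limma adjusted p = 0.185), beside the collagen receptor Ddr1 at -0.35 and Itgb5 at -0.35. Of 11 contractile and retinoid genes of stellate cells, 1 was higher, the tropomyosin gene Tpm1 (0.42, SE 0.16, limma adjusted p = 0.214), beside Rarres2 at 0.31 and Crabp2 at -0.27. Some genes named from these lists have several probe sets, among them Tpm1 with 6, Mmp24 with 3, and Tgfbr1 and Smad3 with 2 each. Only the probe set of highest mean was read for them.

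For some other cells of the tissue, summed marker levels did not overlap between the diets. Among all tested probe sets, taken singly, 25.4% did not overlap (11.1% higher and 14.3% lower in ethanol). No such share is given here for sums. The summed intensity of the 5 tested of 7 adipocyte markers with a probe set ran from 5340 to 7469 in control rats and from 9319 to 10430 in ethanol rats, with none at 0 and with Lep and Plin1 under the filter. The largest part of that sum was Lpl, at 0.77 (SE 0.28) with overlapping groups. Groups also overlapped for Plin4 at 0.32 (SE 0.24) and Fabp4 at -0.13 (SE 0.24), but not for Cfd at 0.69 (SE 0.21) and Pck1 at 0.73 (SE 0.18). The 4 erythroid markers summed to between 15433 and 22883 in control rats and between 25617 and 33312 in ethanol rats, with Hbb at 0.80 (SE 0.20) and none at 0. The lists' median log2 changes were 0.69 and 0.61. An unadjusted p under 0.05 was reached by 3 of the 5 tested adipocyte genes and 3 of the 4 erythroid genes. All of these were higher in ethanol. Over all tested probe sets 18.4% reached that level (8.08% higher and 10.3% lower). Endothelial sums overlapped, from 7635 to 10843 and from 9425 to 11308, and so did those of the 2 tested smooth muscle markers, from 1225 to 1651 and from 1363 to 1556; Tagln and Cnn1 were at or below 0 on some arrays. Leukocyte sums (6 tested genes) ran from 7610 to 8280 and from 8294 to 8828, and did not overlap by a small margin. Among them Aif1 was at 0.39 (SE 0.19, overlapping groups), and the other 5 ran from -0.098 (Cd4) to 0.035 (Csf1r). Sums of the 13 acinar markers ran from 1547430 to 1550248 and from 1570679 to 1615644. Those of the 4 tested ductal markers lay lower in ethanol, from 10851 to 11507 and from 9160 to 10792. Most of that sum was Muc1, an epithelial mucin (log2 change -0.27, SE 0.13), while Car2 was at 0.45 (SE 0.24), Krt7 at -0.15 and Slc4a4 at -0.089, these 3 with overlapping groups. The 2 tested mesothelial markers had opposite signs without overlap: Msln was at 0.31 (SE 0.14), and the brighter Krt8, a keratin of many epithelia, at -0.58 (SE 0.15). Islet sums overlapped, from 148765 to 182333 and from 115964 to 181967. The part of these cells in the values of Col5a1, Col18a1, Bgn and Mmp9 was not tested.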

How the data were processed

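Gene expression in pancreas was measured on single-colour rat arrays, 1 per rat, 3 control and 3 ethanol; the replicates are separate animals per the series' design text. The authors deposited 1 intensity per probe set and array. From the values, these are linear, background-subtracted (931 to 949 below 0 per array) and already scaled to nearly 1 distribution (medians 543 to 544), which removes any difference in total RNA; the sources used here do not give scanner, software or normalization. Of 15866 probe sets without the 57 controls, 12783 carry 1 gene symbol in the platform annotation, 312 several and 2771 none; genes are named from the first kind only. Values below 0 were set to 0, 50 was added and log2 taken. Probe sets with a mean log2 value at or above the 40th percentile (9520) were fitted with limma 3.58.1 in R 4.3.3 (2 groups, no block, empirical Bayes), two-sided, with Benjamini-Hochberg adjustment over all of them. The procedure was tested on simulated data. No depth exists for arrays; their number limits the precision.

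Values on every array are given for the 12 tested genes of smallest unadjusted p and the 2 of highest mean in each of 10 role groups, and for the 3 of smallest p in each related list the changes. Values of other probe sets and of Lamb2 and Fbn1, and the Col4a1 relations, were chosen after values were seen. The genes and lists were chosen with earlier results of these data known. The alternatives changed the added constant (20 or 100), the scaling (quantile or equal medians), the filter (none, or the 60th percentile), the variance prior (with a trend), the design (the replicate number as a block), the threshold (0.10), the summary of a gene (its probe sets averaged) and the arrays (1 left out at a time).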

Additional observations from a re-analysis of the deposited data

How the results depend on the processing

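Of the 23 matrix genes given on every array and tested, 17 kept the sign of their change under each of the 16 alternatives that gave them a value, and Col5a1 was the only one called under any. Of the 16, 5 (filter, variance trend, block and threshold) leave the change itself as it was and could not turn a sign; 4 genes (Col12a1, Mmp14, Timp1 and Mmp9) were under the filter at the 60th percentile, and Mmp9 also without ethanol replicate 1. The count of matrix genes called was 0 by limma except that it was 1 (Col5a1) with a variance trend and 1 at an adjusted p under 0.10. The count at an unadjusted p under 0.05 was 4 with a variance trend and ran from 2 to 5 with each array left out. It was 4 without control replicate 3, 5 without ethanol replicate 2 and 5 without ethanol replicate 3. In the main setting it was 2 of 34, or 5.88%, beside 18.4% of all tested probe sets. The shares of all probe sets under these alternatives are not given here, so the higher counts are not read as a result about the set. Over the whole array limma called 12 probe sets with a constant of 20, 134 with a filter at the 60th percentile, 249 with a variance trend, 228 at an adjusted p under 0.10 and 0 without a filter (14.3% at an unadjusted p under 0.05). With each array left out it called from 2 to 38. With the replicate number as a block it called 6, and 0 matrix genes (3 at an unadjusted p under 0.05). Deviations of same-numbered rats correlated at -0.030, 0.026 and -0.14. The labels do not say that the numbers pair the rats, and these correlations cannot settle it. Mmp2 changed sign with the mean of its probe sets (0.19). With each array left out, signs changed within the ranges -0.29 to 0.19 for Col3a1, -0.092 to 0.35 for Eln, -0.18 to 0.058 for Igfbp5, -0.25 to 0.23 for Mmp2, -0.13 to 0.13 for Serpinh1 and -0.12 to 0.031 for Timp2. The cause was not tested. Dim genes limit what can be said: 9 of the 43 lay under the filter.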
